A study of Mus musculus with 10 samples.

Results

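The alpha CDR3s described here are the amino acid sequences that were read in every library of T cell receptor (TCR) sequencing from splenic regulatory T (Treg) cells. An alpha CDR3 was a CDR3 without a beta chain J end, and it was kept where its count was 1 or more in all 10 libraries. This left 883 of 78558 distinct alpha CDR3s, or 1.12%. The members were selected on these counts, so their presence in every library is not a result.

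The libraries came from 5 CNS4KO samples, in which CNS4, a distal enhancer of the Treg lineage gene Foxp3, is deleted, and 5 CNS4Flox samples, which carry the floxed enhancer and are labelled as wild type. All were Treg cells sorted from mouse spleen and used directly, with no treatment. The labels give no age, no Cre driver and no sorting gate, and do not state that each replicate was another mouse, so spreads and p-values measure only the differences between these samples. Replicate numbers were given in the order of the samples.

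A TCR alpha chain is made by joining a V gene to 1 of many J genes in the thymus. Bases are trimmed from both ends and others are added without a template at the join, which becomes the CDR3, the loop that contacts peptide. Because the genetic code is redundant, different joins can give the same amino acids, and CDR3s that arise easily in this way recur between individuals; they are called public. An invariant alpha chain with TRAJ18 marks invariant natural killer T (NKT) cells, which recognise lipids presented by CD1d.

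The deposited tables held 61793 to 95853 counts per library, of which 40584 to 68663 were alpha. Alpha chains were listed under beta V gene names throughout, so the alpha V gene was not known and the entries need not stand for all alpha chains of the samples. The J gene was read from the last 6 residues. All 883 CDR3s in every library ended in 1 of 31 listed TRAJ ends, against 93.7% of all distinct alpha CDR3s, and 0 had a beta end. Expression of Foxp3 was not measured in these libraries, so the cell type and the deletion could not be checked.

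CNS4KO replicate 5 and CNS4Flox replicate 3 had 1005 beta nucleotide sequences in common, against 185 to 459 in the other 44 pairs of libraries. They had 4022 alpha sequences in common, against 1965 to 3955 in the other pairs. Where these come from was not tested. The main comparisons between the groups are given with and without both libraries, and without them 1063 alpha CDR3s were in all remaining libraries.

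Several nucleotide sequences stood behind nearly every one of these CDR3s. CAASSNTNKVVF, a 12-residue TRAJ34 chain, had the most, 27 over the 10 libraries. It is shown first because its widest sequences differ in each alanine codon and, in the third, in the whole first serine codon, with the same residues. Capitals mark the longest run from the 3′ end that matches the consensus of the J end, and lower case marks the rest.
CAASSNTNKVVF, in 9 libraries, 174 counts: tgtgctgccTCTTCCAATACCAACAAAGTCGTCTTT
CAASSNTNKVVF, in 9 libraries, 39 counts: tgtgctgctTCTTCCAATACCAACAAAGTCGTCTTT
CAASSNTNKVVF, in 9 libraries, 18 counts: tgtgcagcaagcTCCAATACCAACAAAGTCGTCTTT
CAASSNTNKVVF, in 8 libraries, 14 counts: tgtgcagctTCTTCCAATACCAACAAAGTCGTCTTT
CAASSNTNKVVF, in 7 libraries, 26 counts: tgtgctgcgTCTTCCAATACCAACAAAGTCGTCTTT
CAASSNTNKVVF, in 7 libraries, 21 counts: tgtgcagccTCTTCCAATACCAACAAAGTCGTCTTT

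The most abundant CDR3 by mean share was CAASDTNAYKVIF, which ends in TRAJ30. Its leading sequence was the first of the following in 7 libraries and the second in 3. The serine codon at the join ends in a base that matches J in some and not in others, and the residue stays the same.
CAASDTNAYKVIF, in 9 libraries, 676 counts: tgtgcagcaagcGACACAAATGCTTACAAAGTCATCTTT
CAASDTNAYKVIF, in 8 libraries, 359 counts: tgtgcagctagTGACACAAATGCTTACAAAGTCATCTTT
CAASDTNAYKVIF, in 7 libraries, 30 counts: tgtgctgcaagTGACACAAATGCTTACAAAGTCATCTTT

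The sequence of the invariant NKT alpha chain was among the members. It is the 15-residue TRAJ18 chain below, recognised here by its J end, its length and its first residues. Its 3 leading sequences were each found in all 10 libraries and differ from each other only in the third base of the glycine codon at the join.
Invariant NKT chain, in 10 libraries, 404 counts: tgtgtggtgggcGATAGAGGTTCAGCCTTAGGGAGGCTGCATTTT
Invariant NKT chain, in 10 libraries, 217 counts: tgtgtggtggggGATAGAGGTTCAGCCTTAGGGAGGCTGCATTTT
Invariant NKT chain, in 10 libraries, 111 counts: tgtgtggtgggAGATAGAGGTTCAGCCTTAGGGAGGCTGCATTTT
Invariant NKT chain, in 9 libraries, 96 counts: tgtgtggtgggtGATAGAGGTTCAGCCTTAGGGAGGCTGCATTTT

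A single member had just 1 nucleotide sequence. It was the longest one, 23 residues with a TRAJ45 end, and it is named because of these values, after they were seen. All its 506 counts fell on the sequence below, with 38 bases before the J match. Those bases were not compared with germline sequence, so whether this entry is a rearranged alpha chain was not tested.
TRAJ45 chain of 23 residues, in 10 libraries, 506 counts: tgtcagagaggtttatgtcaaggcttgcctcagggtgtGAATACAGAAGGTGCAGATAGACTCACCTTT

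The CDR3s in all libraries were short. Their mean length was 13.1 ± 1.10 residues (SD over 883 CDR3s) against 13.8 ± 1.69 for the other 77675 alpha CDR3s. Lengths of 12 to 14 residues made up 86.0% of the members and 59.6% of the others. Only 5 members had 16 or more residues, 0.566%, against 13.0% of the others. The mean length fell with the number of libraries that held a CDR3, from 13.9 residues for those in 1 library to 13.2 for those in 9 and 13.1 for those in all 10. Weighted by count, the mean length of the members was 13.13 ± 0.0772 residues in CNS4KO libraries, and 13.09 ± 0.0316 in those of CNS4Flox (SD, n = 5 each), and the groups overlapped.

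The shorter length lay in the part before J. A member sequence had 12.4 bases before its J match on average, over 8692 distinct sequences, whereas other alpha sequences with a listed J end had 15.1 over 118964. The match itself was 26.8 bases in members and 26.2 in the others. CDR3s in 9 libraries had 13.1 bases before J and those in 1 library 16.3. For 29 of 30 J ends the member sequences had fewer bases before J than other sequences with the same end. TRAJ45, whose single member is the 23-residue entry, was the exception. The J consensus was built from the same tables, and bases from V and added bases could not be separated without the alpha V genes.

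The members were spread unevenly over J genes, the segments that encode the 3′ end of the CDR3. TRAJ31 (chr14:54187895-54187951, mm10) had 94 members, 10.6% of all members, against 5.11% of distinct alpha CDR3s, a ratio of 2.08. TRAJ18 (chr14:54200777-54200842) had 44 members and a ratio of 1.99, and TRAJ12 (chr14:54206552-54206610) had 60 members and a ratio of 1.85. TRAJ15 (chr14:54204422-54204481) had 56 members and TRAJ22 (chr14:54197248-54197307) had 54. TRAJ21 (chr14:54198790-54198846) and TRAJ34 (chr14:54184699-54184756) had 53 each. TRAJ26 (chr14:54194490-54194549) had 50 and TRAJ37 (chr14:54181518-54181577) had 45. Each is a J segment of the Tra locus, positions as in RefSeq's GRCm38.

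Other J ends were rare among the members. TRAJ32 (chr14:54186101-54186166) had 7 members where its share of distinct alpha CDR3s gives 22.9, a ratio of 0.306. TRAJ48 (chr14:54169808-54169868) had 11 members where 26.9 would match its share, and TRAJ42 (chr14:54175773-54175836) had 11 where 22.1 would. TRAJ2, named after its values were seen, had 478 distinct CDR3s and 0 members. The 8 J ends with the most members (TRAJ31, TRAJ12, TRAJ15, TRAJ22, TRAJ21, TRAJ34, TRAJ26 and TRAJ37) all had ratios above 1.

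**Figure D1:**
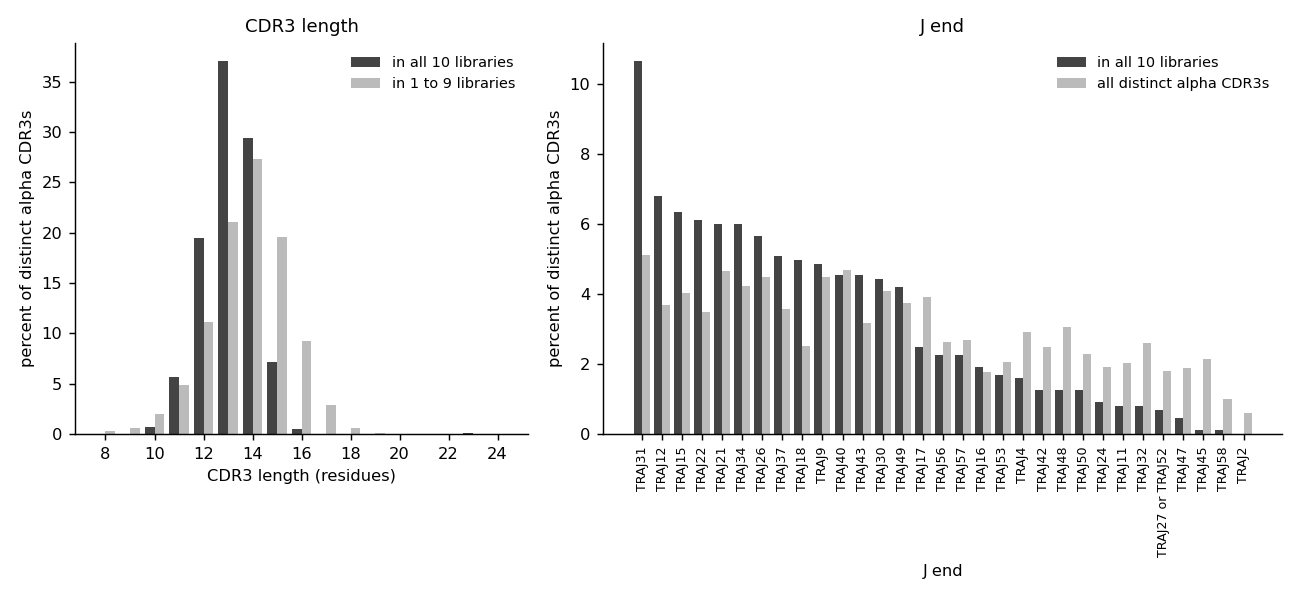
CDR3 length in residues (left) and J end (right), as a percent of distinct alpha CDR3s, for CDR3s in all 10 libraries (dark bars) against CDR3s in 1 to 9 libraries (left, light bars) or all distinct alpha CDR3s (right, light bars); lengths outside 8 to 24 residues are not drawn. The members peak at 13 residues, with 37.0% of them, and TRAJ31 has the tallest dark bar, 10.6% against 5.11%.

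Serine and asparagine were more frequent at the join in members. Between the first 3 and the last 6 residues, serine took 24.9% of positions in members against 19.2% in other alpha CDR3s, and asparagine took 14.4% against 8.68%. Tryptophan took 0.0548% against 1.09%, and lysine 0.192% against 1.41%. Polar residues did not all rise: threonine took 7.92% against 6.57%, but glutamate 2.99% against 5.37% and aspartate 3.51% against 4.67%. Phenylalanine was found at 0 such positions in members against 0.636% in the others. Glycine, the other common residue, took 21.7% and 20.8%. Germline J bases encode part of these positions, so residue shares follow J usage and length as well.

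The first 3 residues, which come mostly from the V gene, were CAA in 361 members, 40.9% against 22.3% of other CDR3s. CAL followed with 275 members and CAV with 154. CAM, at 3.74% of members and 10.1% of others, was less frequent.

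Members resembled each other. For 791 of 883, 89.6%, another member of the same length differed by 1 residue. These formed 92 groups of 2 or more linked CDR3s, the largest holding 27, and 92 members stood alone. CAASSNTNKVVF had 10 member neighbours and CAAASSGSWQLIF, a TRAJ22 chain, had 11, whereas the invariant NKT chain had 0. Over all alpha CDR3s the median number 1 residue away was 31 for members, 27 for CDR3s in 9 libraries and 5 for CDR3s in 1 library.

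The same amino acids were written by many nucleotide sequences. A member had 9.84 distinct sequences on average over the 10 libraries (median 9, range 1 to 27), and 422 members had 10 or more. Of the 8692 sequences, 43.7% were found in 1 library and 126 in all 10, the latter from 117 members (13.3%). The sequence with the highest count was the same in all 10 libraries for 26 members, and 425 members had at least 5 different leading sequences. For 149 members no single sequence reached more than 5 libraries.

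Most base differences fell on the third base of a codon. Between the leading sequence of a member in a library and the others there, 79.6% of base differences fell on codon position 3, 15.98% on position 1 and 4.38% on position 2. The sequences of a member encode the same residues, so the redundancy of the genetic code largely sets this split. There were 13.5 differences per 100 bases before the J match and 1.09 per 100 bases within it, a contrast that is in part built in, since the match is defined by agreement with a consensus. Differences before J also lay in codons away from the join, as in the first alanine codon of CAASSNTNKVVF. Of 15704 such second sequences, 45.2% were 1 base from the leading sequence, a distance that a sequencing or PCR error would also give, and 54.8% were 2 or more bases away. The part of errors in the former was not tested.

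More counts give more chances to see a second sequence, so sequences were compared at equal counts. At a count of 5 in a library, a member had 2.54 nucleotide sequences there. CDR3s in 9 libraries had 2.44, those in 5 to 8 had 1.95, those in 2 to 4 had 1.32 and those in 1 library had 1.07. At a count of 10 the values were 3.51 for members, 2.83 for CDR3s in 9 libraries and 1.04 for CDR3s in 1 library. Members and CDR3s in 9 libraries had overlapping ranges over libraries at every count examined.

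**Figure D2:**
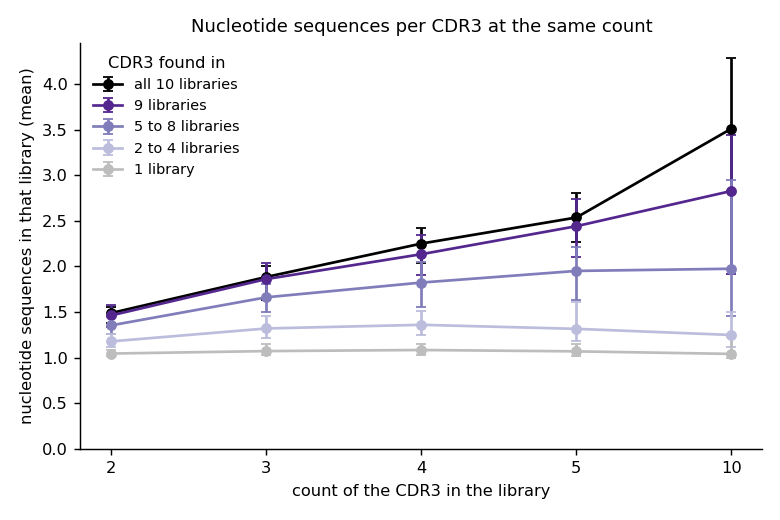
Mean number of nucleotide sequences of an alpha CDR3 in a library (vertical axis) by its count in that library (horizontal axis, counts of 2, 3, 4, 5 and 10, evenly spaced), for CDR3s found in all 10, 9, 5 to 8, 2 to 4 or 1 library; points are means over all CDR3s and libraries, bars run from the lowest to the highest library mean. At a count of 5 the means run from 2.54 for CDR3s in all 10 libraries to 1.07 for those in 1.

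Several of the named CDR3s show this diversity in full. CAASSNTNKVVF had 9.20 sequences per library, from 7 to 11. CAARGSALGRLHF (TRAJ18) had 8.10, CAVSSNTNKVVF (TRAJ34) had 7.70, and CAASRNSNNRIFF (TRAJ31) and a 13-residue TRAJ12 chain had 7.30 each. The 12-residue TRAJ12 chain below had 5.80 per library, and its 4 widest sequences held 28.7%, 27.8%, 12.2% and 24.4% of its counts.
TRAJ12 chain of 12 residues, in 9 libraries, 257 counts: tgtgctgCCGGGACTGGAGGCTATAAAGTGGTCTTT
TRAJ12 chain of 12 residues, in 9 libraries, 249 counts: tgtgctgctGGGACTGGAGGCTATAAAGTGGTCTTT
TRAJ12 chain of 12 residues, in 9 libraries, 109 counts: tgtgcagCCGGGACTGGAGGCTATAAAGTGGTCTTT
TRAJ12 chain of 12 residues, in 7 libraries, 219 counts: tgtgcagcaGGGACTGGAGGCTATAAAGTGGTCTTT

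These few CDR3s made up a similar part of every library. The 883 CDR3s held 20.4%, 19.3%, 21.9%, 21.9% and 20.3% of the alpha counts in CNS4KO replicates 1 to 5. In CNS4Flox replicates 1 to 5 they held 19.8%, 20.4%, 21.3%, 20.5% and 18.8%. The means were 20.8% ± 1.12 for CNS4KO and 20.2% ± 0.948 for CNS4Flox (SD, n = 5 each), a difference of 0.609 percentage points that was smaller than the spread within a group, and the groups overlapped. Without CNS4KO replicate 5 and CNS4Flox replicate 3 the difference was 1.02 percentage points against an SD within groups of 1.06. With every library thinned to 40584 alpha counts and the members chosen again, the means were 19.4% and 18.4%, and the difference of 1.02 points exceeded the SD within groups, 0.799. It also did without CNS4KO replicate 2, with 0.970 points against 0.926. Just outside the selection, the 771 CDR3s in 9 libraries held 8.59% in CNS4KO and 8.64% in CNS4Flox.

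Most members were rare in each library. The mean share over libraries ran from 0.00328% to 0.268% with a median of 0.0152%. A count of 1 in at least 1 library was the lowest value of 447 members, and 48 members had 10 or more in every library. CDR3s in 9 libraries had a median share of 0.00842%. Of these 771, 515 were missing from a CNS4KO library and 256 from a CNS4Flox library. CNS4KO replicate 2, with 50517 alpha counts, lacked the most, 138, and CNS4Flox replicate 1, with 43958, lacked the fewest, 37.

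Fewer nucleotide sequences stood behind each member in CNS4KO. A member had 2.58, 2.43, 2.39, 2.51 and 2.72 sequences on average in CNS4KO replicates 1 to 5. It had 3.37, 2.88, 2.88, 2.91 and 3.12 in CNS4Flox replicates 1 to 5. Every CNS4Flox library lay above every CNS4KO library, with means of 3.03 ± 0.215 and 2.53 ± 0.133 (SD, n = 5 each). No test is given, since this is a mean over members selected on the same libraries. CNS4KO had more alpha counts on average, 52669 against 44686. Members themselves had lower counts there: the median count of a member averaged 5.8 in CNS4KO libraries and 6.4 in CNS4Flox libraries. A mean of 11.4% of members had a count of 1 in CNS4KO, against 8.54% in CNS4Flox. Both measures overlapped between the groups. At a count of 1 only 1 sequence can be seen, and it holds the whole count. The part of this in the difference was not tested. With every library thinned to 40584 alpha counts, the values ran from 2.08 to 2.51 in CNS4KO and from 2.71 to 3.25 in CNS4Flox. The difference of -0.507 between the means was -0.593 without CNS4KO replicate 5 and CNS4Flox replicate 3.

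The leading sequence was correspondingly larger in CNS4KO. Per member it held a mean of 71.0% ± 1.83 of the count in CNS4KO, against 64.0% ± 2.58 for CNS4Flox (SD, n = 5 each), without overlap. Members with 2 or more sequences made up 71.2% ± 2.69 of all members in CNS4KO, against 79.5% ± 3.02 for CNS4Flox (SD, n = 5 each), again without overlap. At a count of 5, a member had 2.27 to 2.50 sequences in CNS4KO libraries and 2.54 to 2.80 in CNS4Flox libraries. Other CDR3s differed in the same direction at that count: over all observations, CDR3s in 9 libraries had 2.27 in CNS4KO and 2.56 in CNS4Flox, those in 5 to 8 libraries had 1.76 and 2.11, and those in 2 to 4 had 1.22 and 1.42. The members had 2.41 and 2.66 by the same measure. With sequences 1 base from a more abundant one merged into it, the means were 1.74 ± 0.0478 and 1.93 ± 0.0527 (SD, n = 5 each) and still did not overlap. Counting only sequences with 2 or more counts, they were 1.496 ± 0.114 and 1.69 ± 0.146 (SD, n = 5 each) and overlapped. CNS4KO libraries also held fewer distinct alpha CDR3s of any kind, 13739 ± 1746 against 16518 ± 1110 (SD, n = 5 each), with overlapping ranges; its part in the result was not tested.

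**Figure D3:**
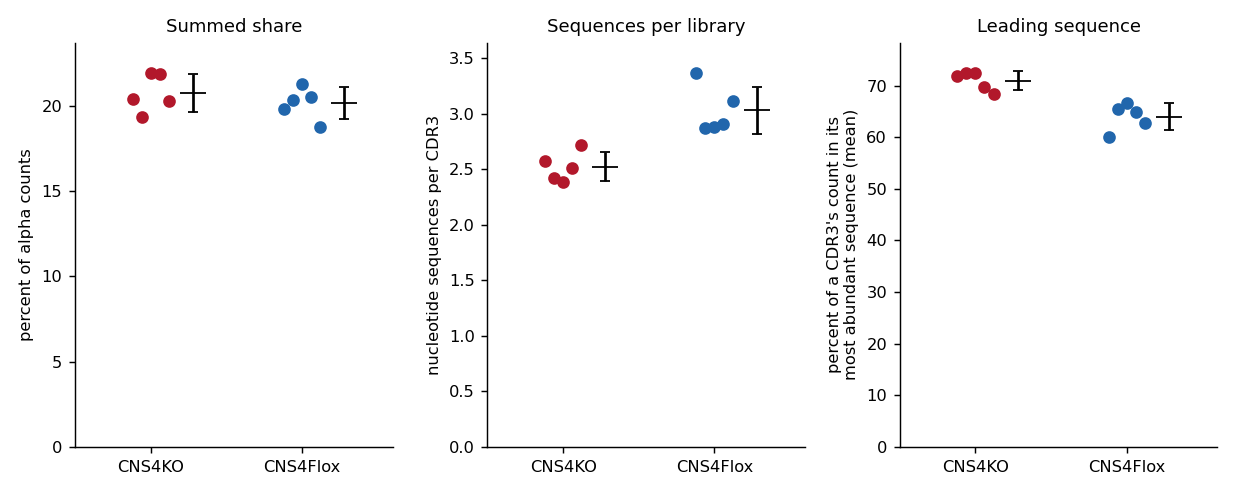
Percent of alpha counts held by the 883 CDR3s (left), their mean number of nucleotide sequences (middle) and the mean percent of a CDR3's count in its most abundant sequence (right) in each library; points are the 5 CNS4KO (red) and 5 CNS4Flox (blue) libraries, and bars show the mean and SD. The groups overlap in the left panel, at 20.8% and 20.2%, and do not in the others.

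Fewer nucleotide sequences of members were shared between CNS4KO libraries, which held fewer of them. A CNS4KO library had 2109 to 2403 member sequences and a CNS4Flox library 2541 to 2978. Sharing at equal numbers of sequences was not examined. A pair of CNS4KO libraries had 828 to 944 member sequences in common (mean 884 over 10 pairs), and a pair of CNS4Flox libraries 1088 to 1345 (mean 1201 over 10 pairs). Pairs across the groups had 922 to 1140. As a share of the sequences in either library, the means were 24.7%, 28.9% and 26.4%. CNS4KO replicate 5 and CNS4Flox replicate 3 had 1082 member sequences in common, within the range of the other pairs across the groups.

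The share of a member varied more in CNS4KO. The coefficient of variation (CV, SD divided by mean) of a member's share over 5 libraries had a median of 0.687 in CNS4KO and 0.550 in CNS4Flox. Counting error alone would give medians of 0.373 and 0.378. The CV was larger in CNS4KO for 566 members and in CNS4Flox for 317. No CV is given for other alpha CDR3s, so whether this is particular to the members was not examined. The summed share of CDR3s in 9 libraries had an SD of 1.35 percentage points in CNS4KO and 0.656 in CNS4Flox. For CDR3s in 1 library the SDs were 1.66 and 2.90, the other way round. The difference between the medians, 0.137, was 0.132 without CNS4KO replicate 5 and CNS4Flox replicate 3.

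Much of the widest spread came from single libraries. In 75 members the highest library lay at least 10 times above the median of the other 9, and that library was a CNS4KO one for 57 of them. By library, 11, 9, 13, 17 and 7 of these belonged to CNS4KO libraries 1 to 5. CNS4Flox libraries 1 to 5 had 1, 4, 6, 6 and 1. Over all 883 members the highest library was a CNS4KO one for 432 and a CNS4Flox one for 451, so the difference concerned how far the highest library stood out. Without CNS4KO replicate 4 the numbers were 39 for CNS4KO and 21 for CNS4Flox, and without CNS4KO replicate 1 they were 42 and 19. Without CNS4KO replicate 5 and CNS4Flox replicate 3 they were 50 and 17. At 20 times the median, 25 members were highest in CNS4KO and 7 in CNS4Flox. Other alpha CDR3s were not examined in this way. In bulk RNA, more cells with a chain and more RNA per cell cannot be told apart.

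In most of these members 1 nucleotide sequence held nearly all of the high count. In the high library, the leading sequence held a median of 98.6% of the count of the 75 members, against a median of 66.7% in their other libraries. It held 90% or more in 58 of the 75, and for 20 of them it was found in no other library. The member with the highest fold, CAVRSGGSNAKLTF (TRAJ42, named after its values were seen), was not of this kind: it lay 135 times above its median in CNS4KO replicate 1, where its leading sequence held 52.9%, 194 of 367 counts. In the remaining 808 members the leading sequence held a median of 69.2% in the highest library.

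**Figure D4:**
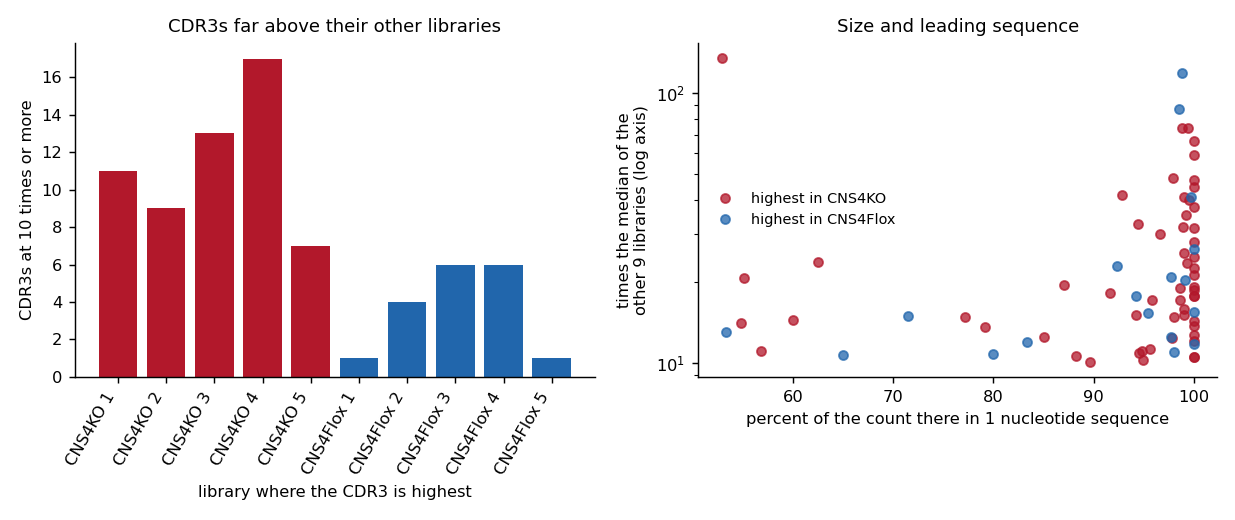
Number of CDR3s whose highest library lies at least 10 times above the median of the other 9, by that library (left), and, for each of these 75, the percent of its count there in 1 nucleotide sequence against the fold over the median on a log axis (right); red is CNS4KO and blue CNS4Flox. CNS4KO replicate 4 has the most, 17, and 58 of the 75 points lie at 90% or above.

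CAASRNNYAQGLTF, a TRAJ26 chain, reached the highest count of the 75 in its high library, 918. It held 0.0175%, 0.0119%, 1.92%, 0.0567% and 0.0233% of alpha counts in CNS4KO replicates 1 to 5. Across CNS4Flox libraries 1 to 5 it held 0.0227%, 0.0267%, 0.0298%, 0.0342% and 0.0258%. Replicate 3 of CNS4KO stood far above the other 9 libraries, the highest of which was CNS4KO replicate 4. There 913 of 918 counts fell on the second sequence below, which was in 2 libraries in all, while the first was in 9 libraries with 29 counts.
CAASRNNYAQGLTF, in 9 libraries, 29 counts: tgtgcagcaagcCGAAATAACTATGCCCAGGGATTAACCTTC
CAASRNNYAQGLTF, leading in CNS4KO replicate 3, 913 counts: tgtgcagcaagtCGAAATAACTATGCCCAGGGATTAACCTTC

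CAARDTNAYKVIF (TRAJ30) held 0.0218%, 0.109%, 0.0710%, 1.05% and 0.0215% in CNS4KO replicates 1 to 5. Its shares across CNS4Flox libraries 1 to 5 were 0.0159%, 0.0291%, 0.00426%, 0.0196% and 0.0297%. Replicate 4 of CNS4KO was high through a sequence found in no other library, with 419 of its 428 counts.
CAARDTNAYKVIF, in 7 libraries, 53 counts: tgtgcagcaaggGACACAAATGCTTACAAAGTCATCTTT
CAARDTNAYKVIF, leading in CNS4KO replicate 4, 419 counts: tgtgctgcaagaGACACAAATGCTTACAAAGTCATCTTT

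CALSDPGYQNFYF (TRAJ49), the member with the largest CV, held 0.278% in CNS4KO replicate 1 and 0.00180% to 0.00734% in the other 9 libraries. All its 191 counts in that replicate were of 1 sequence found nowhere else.
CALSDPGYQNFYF, in 6 libraries, 7 counts: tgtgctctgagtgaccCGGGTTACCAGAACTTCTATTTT
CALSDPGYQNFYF, leading in CNS4KO replicate 1, 191 counts: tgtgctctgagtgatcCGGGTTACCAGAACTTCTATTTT

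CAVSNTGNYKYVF (TRAJ40) was high in a pair of libraries through different sequences. It held 0.488%, 0.0614%, 0.637%, 0.0567% and 0.0880% across CNS4KO libraries 1 to 5. Across CNS4Flox libraries 1 to 5 it held 0.0432%, 0.0121%, 0.0192%, 0.0269% and 0.0218%. All 5 CNS4KO libraries lay above all 5 CNS4Flox libraries. How many members separate the groups in this way was not counted, and this one was named for its high mean share. A sequence with 312 of 335 counts led in CNS4KO replicate 1 and another with 299 of 305 in replicate 3, while the only sequence in all 10 libraries had 104 counts in all.
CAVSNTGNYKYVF, in 10 libraries, 104 counts: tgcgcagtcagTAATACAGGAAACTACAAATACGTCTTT
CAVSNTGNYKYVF, leading in CNS4KO replicate 1, 312 counts: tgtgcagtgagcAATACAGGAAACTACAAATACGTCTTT
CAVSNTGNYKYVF, leading in CNS4KO replicate 3, 299 counts: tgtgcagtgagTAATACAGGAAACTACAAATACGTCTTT

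Other members were even. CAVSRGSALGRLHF (TRAJ18) had the smallest CV over 10 libraries, 0.137. It held 0.0291%, 0.0297%, 0.0313%, 0.0271% and 0.0341% across CNS4KO libraries 1 to 5. Its shares across CNS4Flox libraries 1 to 5 were 0.0364%, 0.0412%, 0.0320%, 0.0269% and 0.0337%. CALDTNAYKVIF (TRAJ30) had a CV of 0.220 and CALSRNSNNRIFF (TRAJ31) of 0.222. For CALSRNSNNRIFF, 2 nucleotide sequences were each found in all 10 libraries.
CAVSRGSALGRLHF, in 10 libraries, 63 counts: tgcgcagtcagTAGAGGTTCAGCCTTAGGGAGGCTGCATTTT
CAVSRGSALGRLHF, in 8 libraries, 38 counts: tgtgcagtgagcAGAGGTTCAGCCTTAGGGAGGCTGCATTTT
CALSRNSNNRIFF, in 10 libraries, 181 counts: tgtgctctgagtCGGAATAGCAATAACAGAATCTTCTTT
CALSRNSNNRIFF, in 10 libraries, 23.2% of its counts: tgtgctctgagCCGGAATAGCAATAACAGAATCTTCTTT

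The invariant NKT chain, a marker of cells other than Treg cells, was the member with rank 6 by mean share. It held 0.179%, 0.194%, 0.144%, 0.234% and 0.242% of alpha counts across CNS4KO libraries 1 to 5. Across CNS4Flox libraries 1 to 5 it held 0.164%, 0.216%, 0.126%, 0.144% and 0.0833%. The groups overlapped. The 23-residue TRAJ45 entry ran from 0.0728% to 0.156%, with 30 to 79 counts per library. Chains of mucosal-associated invariant T cells could not be looked for, since the J segment they use ends in tryptophan and only 10 of 387286 entries end so.

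The most abundant member, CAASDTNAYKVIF, held 0.153%, 0.319%, 0.207%, 0.0616% and 0.165% across CNS4KO libraries 1 to 5. Its shares across CNS4Flox libraries 1 to 5 were 0.0796%, 0.216%, 0.601%, 0.428% and 0.446%. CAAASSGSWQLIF held 0.109% to 0.233% in CNS4KO and 0.131% to 0.478% in CNS4Flox. The TRAJ12 chain of 12 residues shown above held 0.0682% to 0.322% and 0.155% to 0.388%. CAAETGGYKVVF, another TRAJ12 chain, held 0.0813% to 0.203% and 0.0758% to 0.518%. In each of these 4 the groups overlapped.

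**Figure D5:**
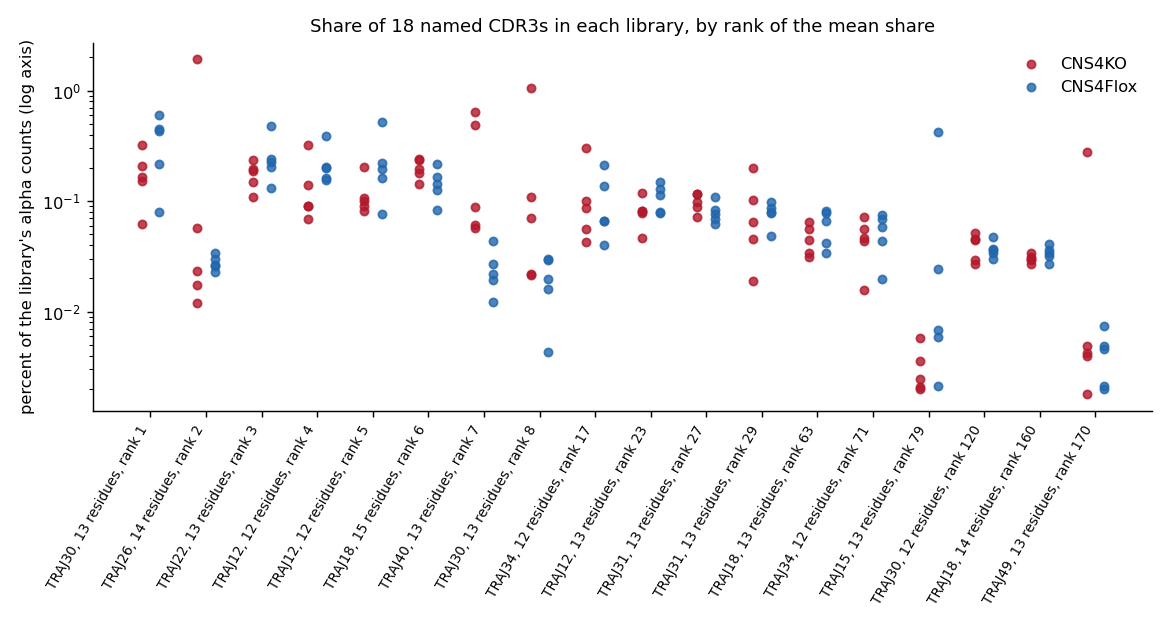
Percent of a library's alpha counts (log axis) held by each of 18 named CDR3s, ordered by the rank of their mean share and labelled by J gene and length; each point is 1 library, CNS4KO in red and CNS4Flox in blue. Single red points at 1.92% and 1.05% stand above the TRAJ26 chain of rank 2 and the TRAJ30 chain of rank 8, and the points of the TRAJ18 chain of rank 160 lie within 0.0269% to 0.0412%.

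Counts were compared between the groups with edgeR's quasi-likelihood test over 7180 alpha CDR3s detected in at least 5 libraries, with Benjamini-Hochberg adjustment, and 0.125% of all tested were called at an adjusted p under 0.05. Of the 883 members, all of which were tested, 1 was called. Leaving out 1 library changed that number: it was 0 without CNS4KO replicate 2 or CNS4Flox replicate 2, 4 without CNS4KO replicate 1, 6 without CNS4KO replicate 3 or 4, 7 without CNS4KO replicate 5, and 2 without CNS4Flox replicate 3, 4 or 5. It was 2 without CNS4KO replicate 5 and CNS4Flox replicate 3 together. The share called of all tested moved too: in the same fits it was 0.153% without CNS4KO replicate 2 or CNS4Flox replicate 2, 0.432% without CNS4KO replicate 1, 0.752% without CNS4KO replicate 3 or 5, 0.682% without CNS4KO replicate 4, 0.125% to 0.195% without CNS4Flox replicate 3, 4 or 5, and 0.585% without both libraries. At an unadjusted p under 0.05, 28 members were higher in CNS4KO, 3.17% against 3.44% of all tested. At the same threshold 15 were lower, 1.70% against 5.21% of all tested. Members had to be present in every library, whereas other CDR3s tested needed only 5. Contrasts of members with all tested are therefore in part set by the selection. The split depended on the scaling, with 38 members higher and 7 lower under TMM, and 42 and 20 with DESeq2. In either direction these were 5.1% of members against 8.12% of all tested under TMM, and 7.02% against 6.43% with DESeq2. The median log2 fold change (CNS4KO over CNS4Flox) was -0.18 for the members and -0.32 for all tested. With TMM scaling the median of all tested moved by 0.24, and that of the members was then 0.04, so the direction of the median member depended on the scaling.

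The called member was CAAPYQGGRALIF, a TRAJ15 chain, with a log2 fold change of -4.72 (SE 1.09, edgeR adjusted p = 0.0429). It held 0.00583%, 0.00198%, 0.00209%, 0.00246% and 0.00359% across CNS4KO libraries 1 to 5. Across CNS4Flox libraries 1 to 5 it held 0.00682%, 0.424%, 0.00213%, 0.0245% and 0.00595%. The groups overlapped, and the fold rested on CNS4Flox replicate 2, where 173 of 175 counts were of 1 sequence. Without that library the log2 fold change was -1.51 (edgeR adjusted p = 0.803). The adjusted p ran from 0.00589 to 0.803 over 16 alternatives that gave one. DESeq2 gave none for this CDR3, so it was not among the 4 members called with DESeq2.
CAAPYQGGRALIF, leading in CNS4Flox replicate 2, 173 counts: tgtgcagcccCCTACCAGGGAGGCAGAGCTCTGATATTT
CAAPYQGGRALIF, in 3 libraries, 4 counts: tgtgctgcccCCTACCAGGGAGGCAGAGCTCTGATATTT

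Other members with 1 high library, or with a pair of them in the case of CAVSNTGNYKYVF, did not pass in the same fit. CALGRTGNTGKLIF (TRAJ37, named after its values were seen) held 0.635% in CNS4Flox replicate 2, 0.0955% in CNS4Flox replicate 1 and at most 0.0125% elsewhere, with a log2 fold change of -4.27 (SE 1.04, edgeR adjusted p = 0.0634), and was called in 11 of 18 settings. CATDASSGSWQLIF (TRAJ22, likewise) held 1.01% in CNS4KO replicate 1 and at most 0.0419% elsewhere, with 3.73 (SE 1.04, edgeR adjusted p = 0.116), and was called in 5. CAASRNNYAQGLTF had a log2 fold change of 3.85 (SE 1.06, edgeR adjusted p = 0.115), which was -0.036 without CNS4KO replicate 3. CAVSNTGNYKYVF had 3.42 (SE 0.939, edgeR adjusted p = 0.115) and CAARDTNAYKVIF had 3.68 (SE 0.998, edgeR adjusted p = 0.111). The log2 fold change of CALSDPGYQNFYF was 3.76 (SE 1.07, edgeR adjusted p = 0.136), and -0.16 without CNS4KO replicate 1. Some alternatives did call these 4: 6 of 17 for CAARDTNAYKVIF, with adjusted p from 0.00424 to 0.640, 5 of 16 for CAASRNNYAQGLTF, from 3.4e-05 to 0.997, 5 of 17 for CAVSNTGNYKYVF, from 0.00809 to 0.256, and 3 of 16 for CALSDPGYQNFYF, from 0.0213 to 0.970. DESeq2 gave no adjusted p for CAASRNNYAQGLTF and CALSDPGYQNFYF. The invariant NKT chain had a log2 fold change of 0.44 (SE 0.820, edgeR adjusted p = 0.914) and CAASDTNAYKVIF had -0.97 (SE 0.853, edgeR adjusted p = 0.796).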

How the data were processed

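TCR libraries of 5 CNS4KO and 5 CNS4Flox Treg samples were used, grouped by the strain label. Per the labels' protocols, RNA was reverse transcribed with TCR primers and template switching, amplified in a pair of PCR steps and sequenced. Per the file headers, each table gives a count and a fraction per clonotype; the deposited fraction was the count divided by the library total. Whether counts are reads or molecules, the aligner and the caller are not given in the sources used here, so sequencing errors and PCR duplicates may remain; counting error covers depth only. The build was mm10, per the submitters' processing notes.

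Deposited counts were summed per amino acid CDR3 and library. J genes were read from 6-residue ends listed from general knowledge after the tables were seen; RefSeq (GRCm38) held 30 of 30 single TRAJ genes. The J match was built by extending a consensus from the 3′ end while 1 base held a share of at least 0.5. Members and lists were chosen with earlier results of these data known. edgeR 4.0.16 (R 4.3.3) was run on CDR3s in at least 5 libraries with the alpha total as library size and no TMM. The SE given with a log2 fold change was derived from the test, as its absolute value divided by the square root of the F statistic. DESeq2 1.42.0 was an alternative. Procedures were tested on simulated data. For edgeR the simulated fold applied to every library of a group, so CDR3s high in a single library were not covered.

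Named CDR3s were those called (up to 5 per direction), the 8 with the highest mean share, the 5 with the most nucleotide sequences per library, the 3 with the smallest and the 3 with the largest CV, and invariant chains. Named J ends were the 8 with the most members and the 3 most over- and under-represented, among those with 20 members or 20 expected. Inserted bases were not analysed here, since no genome of the build was used. Alternatives included thinning to 40584 alpha counts in 1 draw.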

Additional observations from a re-analysis of the deposited data

Results flagged for a closer look

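Of 56 groups of 5 libraries examined, 36 were for the shares of the 18 named CDR3s. In 8 groups a library stood apart from the others by a gap that took up most of the range. Chance flags about 1 in 20 groups of this size where values are normally distributed. Whether the shares of the named CDR3s are so distributed was not tested. Many of these CDR3s were named for a high share or a wide spread, so such gaps were likelier among them. All 8 were shares of named CDR3s, 6 in CNS4KO and 2 in CNS4Flox. In CNS4KO, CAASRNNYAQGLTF stood at 1.92% in replicate 3 against at most 0.0567%, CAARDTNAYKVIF at 1.05% in replicate 4 against at most 0.109%, and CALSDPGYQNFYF at 0.278% in replicate 1 against at most 0.00493%. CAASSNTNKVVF stood at 0.303% in CNS4KO replicate 4 against at most 0.101%, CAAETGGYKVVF at 0.203% in replicate 5 against at most 0.106%, and the 12-residue TRAJ12 chain with the higher mean share at 0.322% in replicate 1 against at most 0.141%. In CNS4Flox replicate 2, that TRAJ12 chain stood at 0.388% against at most 0.203% and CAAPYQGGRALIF at 0.424% against at most 0.0245%.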

How the results depend on the processing

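The number of called members was 1 (edgeR), and 0 with TMM or a filter at 8 libraries, 4 with DESeq2, and 6 with a filter at 3 libraries or none. It was 2 without CNS4KO replicate 5 and CNS4Flox replicate 3, and 0 to 7 without 1 library. Of all tested, 0.0418% were called with TMM, 0% at 8 libraries, 0.167% with DESeq2, 0.731% at 3 libraries, 0.141% with no filter and 0.585% without both libraries. At an unadjusted edgeR p under 0.05, TMM gave 45 members, 5.1% of members against 8.12% of all tested. The filter at 8 libraries gave 54, 6.12% against 8.46%. Without CNS4KO replicate 2 there were 42, 4.76% against 8.68%, and without CNS4Flox replicate 2 there were 32, 3.62% against 7.81%. Under at least 1 of 18 settings, 9 members were called. Members numbered 883, 741 at equal depth, 436 with a count of 2 or more everywhere, 1654 in at least 9 libraries, and 920 to 1021 without 1 library. The difference in summed share was 1.02 percentage points at equal depth, and 0.261 to 0.970 percentage points without 1 library. The difference in sequences per member, -0.507, was -0.193 for sequences with 2 or more counts, -0.188 after merging and -0.265 at a count of 5 (the last chosen after seeing the data), and -0.556 to -0.422 without 1 library. The CV difference, 0.137, was 0.208 for members above the median share and 0.0926 to 0.161 without 1 library. Members at least 10 times above their median numbered 39 more in CNS4KO, 18 more at 20 times, and 18 to 45 more without 1 library, 18 being without CNS4KO replicate 4 and 23 without CNS4KO replicate 1; these settings were chosen after seeing the data. The log2 fold change of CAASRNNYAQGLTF was -0.036 without CNS4KO replicate 3 and up to 4.18 without other libraries, and that of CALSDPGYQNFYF -0.16 without CNS4KO replicate 1 and up to 4.07 without another single library; the libraries named held most of their counts. Elsewhere the cause was not tested. Length and bases before J kept their direction under the alternatives run. Alternatives for inserted bases were not run. No paired analysis was possible because the replicate numbers only name samples.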
